A study of Mus musculus with 14 samples.

Results

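Exoc1, Exoc4, Syngr1, Ap1s2, Stx3 and Vma21 are 6 mouse genes of the exocyst and of vesicle trafficking, among 1233 genes that entered at least 1 of the deposited tables of RNA level and exon use. They were chosen by name, with their measured changes already known, from genes whose level or exon use passed the authors' adjusted p of 0.1, so the values below describe them and the adjusted p-values that brought them into the tables lend them no further support. Exoc4, Stx3 and Vma21 are among the 1036 genes of the expression table, and Exoc1, Syngr1, Ap1s2 and Vma21 are among the 228 genes of the splicing table, where they hold 39 of 4019 exon bins. Vma21 is the 1 gene in both. The cells were C2C12, a mouse myoblast line, transfected with small interfering RNAs against the Qk5 isoform of Quaking (Qk5 depletion), with ones against the Qk6 and Qk7 isoforms (Qk6/7 depletion), or with control ones (control), with 3 replicates in each group. Quaking binds RNA and controls its splicing, export and stability, and its isoforms share the binding domain but end differently at the C-terminus. The tables hold the authors' group means and folds without values per replicate, so no spread, standard error or interval can be given, and the depth per sample is unknown.

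Cells move membrane proteins and secreted cargo in vesicles that bud from one compartment and fuse with another. The exocyst is a complex that holds a vesicle at the plasma membrane before fusion, and Exoc1 and Exoc4 are subunits of it. Fusion itself is carried out by SNARE proteins, of which the syntaxin Stx3 sits on the target membrane. Ap1s2 is a small subunit of an adaptor complex that links cargo to clathrin at the trans-Golgi network and endosomes. Syngr1 is a membrane protein of synaptic-like vesicles that crosses the membrane several times. Vma21 is an endoplasmic reticulum protein needed to assemble the proton pump that acidifies vesicles and lysosomes, and loss of its function in humans causes a myopathy with excess autophagy.

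As a check of the treatment, the authors' deposited table gives the whole Qk gene a mean of 3267 normalized counts in Qk5 depletion, 5271 in Qk6/7 depletion and 5875 in control cells, values that do not separate the isoforms (DESeq adjusted p over control = 0.00246 in Qk5 and 1 in Qk6/7 depletion). No bin of Qk is in the longer splicing table. Of the 4 myoblast markers Myod1, Myf5, Des and Cdh15, only Myf5 is in the authors' deposited table, with means of 970 in Qk5 depletion, 1521 in Qk6/7 depletion and 810 in control cells (DESeq adjusted p = 0.81 in Qk5 and 0.00586 in Qk6/7 depletion). Both markers of differentiating muscle, Myog and Mymk (listed as Tmem8c), are in it. Myog, a myogenic transcription factor, has means of 390 in Qk5 depletion, 232 in Qk6/7 depletion and 153 in control cells (DESeq adjusted p = 0.00066 and 0.476 for the depletions in that order), by the authors' deposited table. Mymk, a fusion protein of myoblasts, has 145 in Qk5 depletion, 94.4 in Qk6/7 depletion and 68.8 in control cells (DESeq adjusted p = 0.0905 and 0.884), by the authors' deposited table, and the part of these differences in the values below was not tested. Control means are the same in both comparisons for all genes of the table, so levels of the 3 groups share 1 scale. Both comparisons also share the control libraries, so a gene's values in the depletions are given side by side and are not independent.

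Exoc1 (kgCluster19046) stood out by a single bin. Bin 16 spans 45 nt on chromosome 5 (mm9 chr5:76986844-76986888, plus strand). It matches in length, and in the lengths of the introns before it (3613 nt) and after it (1140 nt), the coding exon 11 of the 19 exons of the GENCODE transcript Exoc1-202. The transcript Exoc1-201 lacks that exon and is otherwise built from the same internal exons, with 879 codons against 894 in Exoc1-202. The exon preserves the reading frame, adds 15 codons and holds 0 in-frame stop codons. It is printed because it is the 1 stretch of Exoc1 whose use was called, in capitals between the last 20 bases of the exon before it and the first 20 of the exon after it, as joined in the transcript (GRCm38 chr5:76557819-76557863 for the capitals, plus strand).
Exoc1 cassette exon: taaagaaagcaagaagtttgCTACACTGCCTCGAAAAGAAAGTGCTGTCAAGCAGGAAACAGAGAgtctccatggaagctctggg

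The authors' deposited table gives bin 16 a log2 fold of bin use of 13.79 in Qk5 depletion over control and of -0.36 in Qk6/7 depletion over control. Bin use means the reads of a bin relative to those of the gene's other bins. The authors' DEXSeq adjusted p, a single test over the 3 conditions together, was 0.00566 for this bin in the authors' deposited table. A log2 fold of 13.79 goes with a fitted use close to 0 in control cells, and without counts its size cannot be read as a measured ratio. The log2 fold of -0.36 rests on the same control use and has the same limit. Among the 231 called bins of the series it is the 1 bin with a Qk5 log2 fold over 5 in size, the next highest being 2.89, while 71 of the 3879 bins with a fold pass that size whether called or not. The log2 fold of Qk6/7 over Qk5 depletion for this bin is -14.15 in the authors' deposited table. It is the difference between the folds over control and has the same limit on its size.

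The remainder of Exoc1 lay near its own average. The 18 other exon bins of Exoc1 with a fold have log2 folds between -0.30 and 0.15 in Qk5 depletion and between -0.23 and 0.17 in Qk6/7 depletion, by the authors' deposited table. The neighbours of bin 16 are at -0.30 (bin 15) and 0.03 (bin 17) in Qk5 depletion, and at -0.01 and -0.23 in Qk6/7 depletion, by the authors' deposited table. The 4 bins that cover intron sequence in the first part of the gene have log2 folds between -0.45 and -0.14 in Qk5 depletion and between 0.08 and 1.67 in Qk6/7 depletion, by the authors' deposited table. The value of 1.67 belongs to bin 9, whose DEXSeq adjusted p was 1 in the authors' deposited table. Bin 8, a 21 nt exon of the transcript Exoc1-203, has neither a fold nor a p-value. The gene's level is not in the expression table, so of its level only an adjusted p of at least 0.1 in both comparisons, or no test, is known here.

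**Figure D1:**
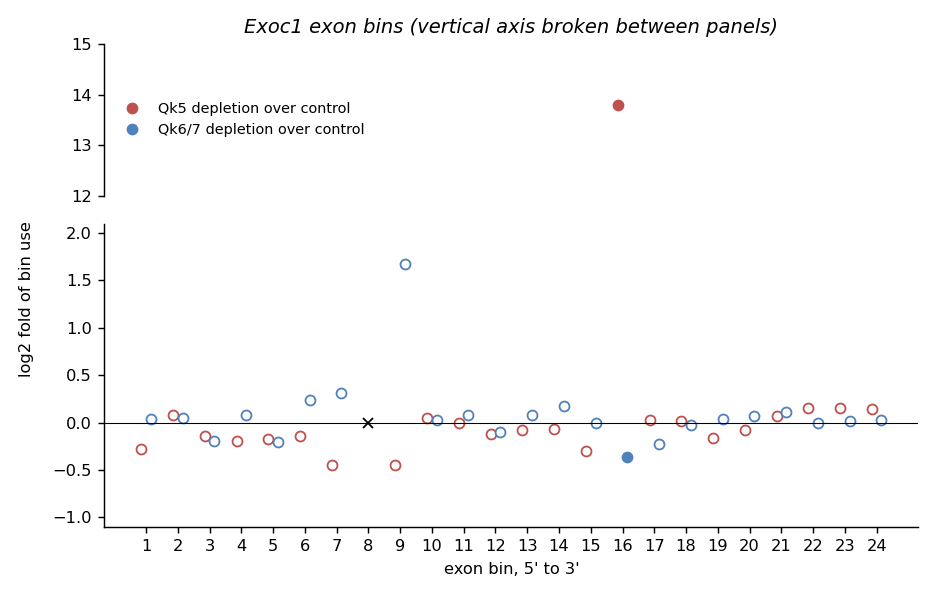
Log2 fold of bin use (vertical axis, broken between the panels) for the exon bins of Exoc1 from 5′ to 3′ (horizontal axis), in Qk5 depletion over control (red) and Qk6/7 depletion over control (blue). Filled points are bins called at an adjusted p of 0.05 over the 3 conditions, open points are bins that were not called, and the cross marks bin 8, which has no value. Bin 16 is at 13.79 in Qk5 depletion and at -0.36 in Qk6/7 depletion, sizes that cannot be read as measured ratios.

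Exoc4 (kgCluster20395), another exocyst subunit, was higher in level in both depletions. Its mean was 1245 normalized counts in Qk5 depletion, 1235 in Qk6/7 depletion and 695 in control cells, by the authors' deposited table. The means of the depletions are nearly equal, at a ratio of 1.01 (Qk5 over Qk6/7 depletion), a difference for which the table has no test. The fold over control is 1.79 in Qk5 depletion with a DESeq adjusted p of 0.0125, and 1.78 in Qk6/7 depletion (DESeq adjusted p = 0.0208), by the authors' deposited table. In bulk RNA a lower or higher level can come from the number of cells that express a gene or from the RNA per cell, which cannot be told apart. Among the called rises it ranks 287 of 360 by size in Qk5 depletion and 80 of 101 in Qk6/7 depletion. Rises were called for 2.17% of the 16604 genes tested in Qk5 depletion and for 0.61% of the 16564 in Qk6/7 depletion. No bin of Exoc4 is in the splicing table. GENCODE places Exoc4 on chromosome 6 (GRCm38 chr6:33249085-33973979, plus strand).

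Of the 10 exocyst subunits looked up, Exoc4 is the 1 gene in the expression table and Exoc1 the 1 gene in the splicing table. Both were chosen by such calls, so nothing is read from these counts. Of 10 GTPases and partners of the exocyst, none passed an adjusted p of 0.05 in level. Over all genes tested, 2.17% rose and 0.801% fell in Qk5 depletion, and 0.61% rose and 1.29% fell in Qk6/7 depletion. Rab8b, a GTPase of exocytic vesicles, is in the table with means of 802 in Qk5 depletion, 629 in Qk6/7 depletion and 494 in control cells (DESeq adjusted p = 0.0763 and 0.804 for the depletions in that order), by the authors' deposited table. Rab11fip5, an effector of Rab11 on recycling endosomes, has 1 called bin, bin 5, with log2 folds of -0.53 in Qk5 and 0.08 in Qk6/7 depletion (DEXSeq adjusted p = 1.17e-08), by the authors' deposited table.

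**Figure D2:**
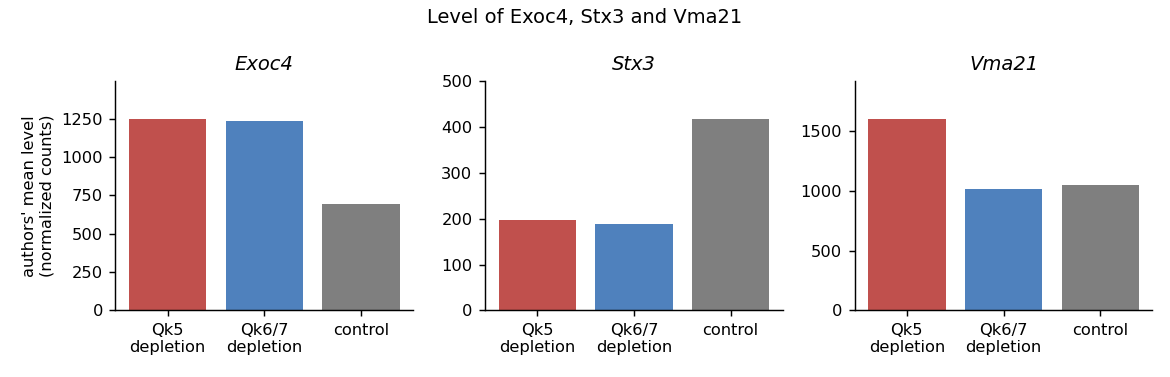
Mean level in normalized counts (vertical axes, from 0) of Exoc4, Stx3 and Vma21 in Qk5 depletion, Qk6/7 depletion and control cells, as the authors' group means, with no error bars because the table gives no values per replicate. Exoc4 is at 1245, 1235 and 695, Stx3 at 198, 189 and 417, and Vma21 at 1599, 1014 and 1047 in that order.

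Syngr1 (kgCluster8734) has alternative last exons, and the use of both was called. Bin 4 (mm9 chr15:79943596-79943870) and bin 5 (mm9 chr15:79946285-79949931), both on the plus strand, follow bin 3 by introns of the same lengths as those that lead into the last exons of Syngr1-202 and Syngr1-201. Bin 5 also matches in exon length, while bin 4 has 275 nt and the last exon of Syngr1-202 has 276 nt. The proteins differ in their C-terminal tails: Syngr1-202 has 191 codons, of which 30 lie in its last exon, and Syngr1-201 has 234, of which 73 do. The 3′ UTR, the untranslated end of the RNA, is 183 nt long in Syngr1-202 and 3425 nt in Syngr1-201. The coding part of each last exon is printed to show the alternative tails, with the stop codon in capitals (GRCm38 chr15:80113166-80113258 for bin 4 and chr15:80115855-80116076 for bin 5, plus strand).
Syngr1 bin 4: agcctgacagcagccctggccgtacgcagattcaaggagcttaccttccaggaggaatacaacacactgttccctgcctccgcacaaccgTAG
Syngr1 bin 5: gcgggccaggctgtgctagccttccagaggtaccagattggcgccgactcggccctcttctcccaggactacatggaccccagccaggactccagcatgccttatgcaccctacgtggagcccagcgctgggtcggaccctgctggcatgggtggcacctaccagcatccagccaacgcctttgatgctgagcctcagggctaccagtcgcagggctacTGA

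In Qk5 depletion over control the log2 fold of bin use is 2.30 for bin 5, the long last exon, and -1.08 for bin 4, the short one, in the authors' deposited table. In Qk6/7 depletion the same bins are at -0.19 and 0.06 in the authors' deposited table. The log2 fold of bin 5 minus that of bin 4 is 3.38 in Qk5 depletion and -0.25 in Qk6/7 depletion. The authors' DEXSeq adjusted p over the 3 conditions was 3.43e-30 for bin 5 and 9.21e-06 for bin 4 in the authors' deposited table. Among the 231 called bins of the series bin 5 ranks 5 by adjusted p and 10 by Qk5 log2 fold.

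The upstream exons of Syngr1 had the sign of bin 4 in Qk5 depletion. Bins 2 and 3 were also called, with log2 folds of -0.60 and -0.79 in Qk5 depletion and of 0.11 and 0.13 in Qk6/7 depletion (DEXSeq adjusted p = 0.016 and 0.0358), by the authors' deposited table. Bin 1 is at -0.93 in Qk5 depletion and -0.20 in Qk6/7 depletion with an adjusted p of 1 in the authors' deposited table. Because use is relative to the gene's other bins, the 4 called bins are not independent of each other. Qk6/7 over Qk5 depletion has log2 folds of -2.50 for bin 5 and 1.15 for bin 4 in the authors' deposited table. Up to rounding these are the differences between the folds over control given above, so they add no separate support. Syngr1 is not in the expression table.

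Ap1s2 (kgCluster28493) has alternative last exons too, and here the values of both depletions have the same signs. Bin 5 (mm9 chrX:160364835-160367478, 2644 nt) matches the last exon of Ap1s2-203 and bin 7 (mm9 chrX:160370065-160371291, 1227 nt) that of Ap1s2-201, both on the plus strand. Between them lies bin 6, an exon of 9 nt that Ap1s2-202 joins to the sequence of bin 7 and that has no value in the table. Ap1s2-203 ends in 18 codons of its own and a 3′ UTR of 2587 nt, and Ap1s2-201 in 15 codons and a 3′ UTR of 1179 nt. The coding ends are printed with the stop codon in capitals, and the small exon in capitals as a whole (GRCm38 chrX:163926903-163926959 for bin 5, chrX:163931363-163931371 for bin 6 and chrX:163932133-163932180 for bin 7, plus strand).
Ap1s2 bin 5: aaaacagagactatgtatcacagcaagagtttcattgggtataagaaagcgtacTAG
Ap1s2 bin 6: GATGCAAAA
Ap1s2 bin 7: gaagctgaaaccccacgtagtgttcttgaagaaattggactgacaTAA

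Bin 5 has log2 folds of bin use of -0.33 in Qk5 depletion and -0.57 in Qk6/7 depletion, by the authors' deposited table. Bin 7 has 0.28 in Qk5 depletion and 0.50 in Qk6/7 depletion, by the authors' deposited table. The authors' DEXSeq adjusted p over the 3 conditions was 1.68e-07 for bin 5 and 0.000892 for bin 7 in the authors' deposited table. The log2 fold of bin 7 minus that of bin 5 is 0.61 in Qk5 depletion and 1.07 in Qk6/7 depletion. Qk6/7 over Qk5 depletion gives -0.24 for bin 5 and 0.22 for bin 7 in the authors' deposited table, a contrast that the table does not test on its own. The 4 upstream bins, none of them called, lie between 0.07 and 0.10 in Qk5 depletion and between 0.04 and 0.28 in Qk6/7 depletion, by the authors' deposited table. Of the 24 subunits of the adaptor complexes looked up, none is in the expression table, and Ap1s2 is the 1 gene in the splicing table. By comparison, 2.17% of all genes tested rose and 0.801% fell in Qk5 depletion, and 0.61% rose and 1.29% fell in Qk6/7 depletion. Of all bins tested, 0.163% were called. At such shares a list of 24 genes can hold no call in level, and Ap1s2 was chosen by its calls, so nothing is read from these counts.

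Vma21 (kgCluster27927) has 3 bins, all of them called, with small folds of opposite sign in the depletions. Bin 3 (mm9 chrX:69066144-69070045, plus strand) matches the 3902 nt last exon of Vma21-202, which holds 140 coding nt and a 3′ UTR of 3759 nt. Its log2 fold of bin use is 0.19 in Qk5 depletion and -0.14 in Qk6/7 depletion, by the authors' deposited table. Bins 1 and 2, which carry the start of the gene, have -0.32 and -0.27 in Qk5 depletion and 0.22 and 0.21 in Qk6/7 depletion, by the authors' deposited table. The authors' DEXSeq adjusted p over the 3 conditions was 0.00462 for bin 1, 0.000258 for bin 2 and 0.000335 for bin 3 in the authors' deposited table. Qk6/7 over Qk5 depletion gives 0.54, 0.48 and -0.33 for bins 1 to 3 in the authors' deposited table. The 3 GENCODE transcripts with a complete coding part all end in this last exon. Another transcript, Vma21-205, shares bin 2 and the intron before it but has no intron of the length between bins 2 and 3. Its use was not tested, and an end within bin 3 cannot be seen from that bin's single value.

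The level of Vma21 was 1599 normalized counts in Qk5 depletion, 1014 in Qk6/7 depletion and 1047 in control cells, by the authors' deposited table. The fold over control is 1.53 in Qk5 depletion (DESeq adjusted p = 0.0934) and 0.968 for Qk6/7 depletion (adjusted p = 1), by the authors' deposited table. The value in Qk5 depletion passes the authors' limit of 0.1, which a gene met in at least 1 of the comparisons, and not the 0.05 used here.

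Of 31 subunits and assembly factors of the vesicular proton pump, none rose and 2 fell in Qk5 depletion, and none was called in Qk6/7 depletion. Rises were called for 2.17% of the genes tested in Qk5 depletion and for 0.61% in Qk6/7 depletion, and falls for 0.801% and 1.29%. Atp6v0e, a small membrane subunit of the pump, had a mean of 1366 in Qk5 depletion, 2502 in Qk6/7 depletion and 2803 in control cells (DESeq adjusted p in Qk5 depletion = 0.000547), by the authors' deposited table. Its paralog Atp6v0e2 had 34.8 in Qk5 depletion, 61.0 in Qk6/7 depletion and 91.2 in control cells (DESeq adjusted p in Qk5 depletion = 0.0394), by the authors' deposited table. Atp6v1f, a subunit of the cytosolic part, is in the table at a fold of 1.46 in Qk5 depletion (DESeq adjusted p = 0.0902), by the authors' deposited table.

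**Figure D3:**
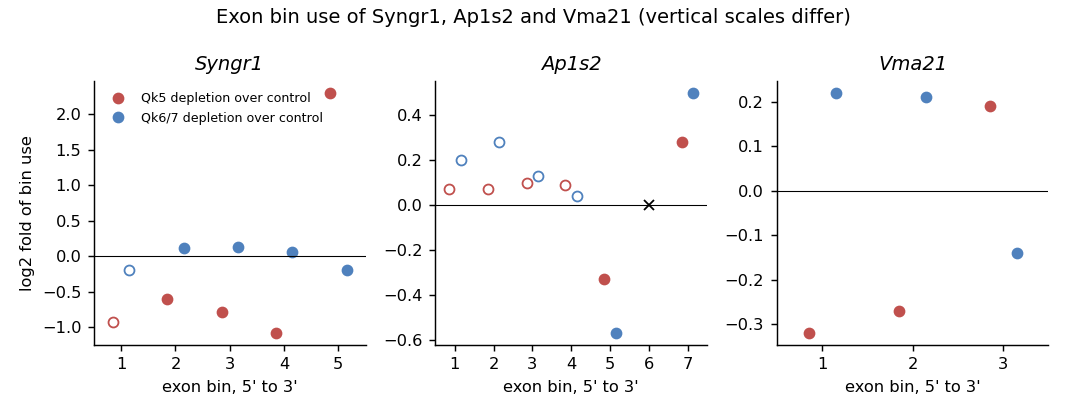
Log2 fold of bin use (vertical axes, on a scale of its own per gene) for the exon bins of Syngr1, Ap1s2 and Vma21 from 5′ to 3′ (horizontal axes), in Qk5 depletion over control (red) and Qk6/7 depletion over control (blue). Filled points are bins called at an adjusted p of 0.05 over the 3 conditions, open points are not called, and the cross marks bin 6 of Ap1s2, which has no value. The last bin of Syngr1 is at 2.30 and -0.19, that of Ap1s2 at 0.28 and 0.50, and that of Vma21 at 0.19 and -0.14, in Qk5 and Qk6/7 depletion in that order.

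Over these 4 genes, 10 of the 37 bins with an adjusted p were called. Over the whole longer table of splicing, 6.18% of bins with an adjusted p were called, and of about 142000 bins tested in all 0.163% were. Since the genes were chosen by such calls, nothing is read from the difference.

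Stx3 (kgCluster12521), the syntaxin, was lower in level in both depletions. Its mean was 198 normalized counts in Qk5 depletion, 189 in Qk6/7 depletion and 417 in control cells, by the authors' deposited table. The means of the depletions are close to each other, at a ratio of 1.05 (Qk5 over Qk6/7 depletion), again with no test in the table. The fold over control is 0.474 in Qk5 depletion (DESeq adjusted p = 0.00413) and 0.453 for Qk6/7 depletion (adjusted p = 0.00158), by the authors' deposited table. Among the called falls it ranks 46 of 133 by size in Qk5 depletion and 104 of 214 in Qk6/7 depletion. No bin of Stx3 is in the splicing table. GENCODE places it on chromosome 19 (GRCm38 chr19:11775118-11819403, minus strand).

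Of the 35 syntaxins and other SNARE proteins looked up, Stx3 is the 1 gene in the expression table and none is in the splicing table. Stx3 was chosen by its calls, so nothing is read from this count. Over all genes tested, 2.17% rose and 0.801% fell in Qk5 depletion, and 0.61% rose and 1.29% fell in Qk6/7 depletion. Among 19 regulators of SNARE proteins, Unc13a, which primes vesicles for fusion, rose in Qk5 depletion at a low level, with means of 36.3 in Qk5 depletion, 14.0 in Qk6/7 depletion and 12.2 in control cells (DESeq adjusted p in Qk5 depletion = 0.0277), by the authors' deposited table. Vps45, a partner of endosomal syntaxins, has 1 called bin, bin 9, with log2 folds of 1.42 in Qk5 and 0.04 in Qk6/7 depletion (DEXSeq adjusted p = 0.0132), by the authors' deposited table.

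Quaking proteins bind RNA at a core hexamer, ACUAAC or ACUAAU, written here with T as in the reference. Both hexamers, ACTAAC and ACTAAT, were searched on the sense strand only, since the protein reads RNA, and matches that overlap (the last bases of ACTAAC can start another) were each counted. The 3′ UTR of Ap1s2-203, the end whose log2 folds of use are below 0 in both depletions, holds 4 matches, all ending in T, and that of Ap1s2-201 holds 1, ending in C. Of 1243 other genes with a 3′ UTR within 10% of the length of that of Ap1s2-203, 56.3% hold a match, with a median of 1. At the length of Ap1s2-201 the share is 32.2% of 1387 genes. The 3′ UTR of Vma21 holds 4 matches, 3 ending in T and 1 in C, at a length where 69.3% of 844 genes hold one, with a median of 1. These 9 matches are printed because they lie in last exons whose use was called, each with 12 bases on either side and the hexamer in capitals, in order from the stop codon.
Ap1s2-203 match 1, GRCm38 chrX:163927285-163927314: tgaagcactgttACTAATgttgctttactt
Ap1s2-203 match 2, GRCm38 chrX:163927734-163927763: actgaacttgccACTAATtagcatttactt
Ap1s2-203 match 3, GRCm38 chrX:163928045-163928074: atgtccctgtgtACTAATgactgctcatcg
Ap1s2-203 match 4, GRCm38 chrX:163928133-163928162: ctcagcttggtgACTAATtctcctgtaaaa
Ap1s2-201 match 1, GRCm38 chrX:163932689-163932718: tgcttttagaggACTAACttagaatgatgc
Vma21-202 match 1, GRCm38 chrX:71822861-71822890: aaacgtttgctaACTAATggtacaggtctt
Vma21-202 match 2, GRCm38 chrX:71823243-71823272: tccttgcaagctACTAATttaaccccactt
Vma21-202 match 3, GRCm38 chrX:71823669-71823698: taaaaaaaagcaACTAATgggcttgtgctt
Vma21-202 match 4, GRCm38 chrX:71824314-71824343: ataatagcaataACTAACaacatctgcaca

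The 4 matches of Ap1s2-203 lie 338, 787, 1098 and 1186 nt after the stop codon, counted to the first base of the hexamer, in a 3′ UTR of 2587 nt. Those of Vma21 lie 1926, 2308, 2734 and 3379 nt after it, in the later part of the 3′ UTR. The long 3′ UTR of Syngr1-201 holds 0 matches, at a length where 66.5% of 977 genes hold one. Stx3 holds 2 matches in the 3′ UTR of Stx3-202 and 0 in that of Stx3-203, against 43.2% and 37.9% of genes of those lengths. Exoc4 holds 1, against 45.7%, and Exoc1-202 holds 0, against 15.9%. The cassette exon of Exoc1 holds no match, as do all but 0.514% of 584 coding internal exons of 45 nt. A match describes letters and was not tested for binding, and introns, where Quaking also binds, were not searched.

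**Figure D4:**
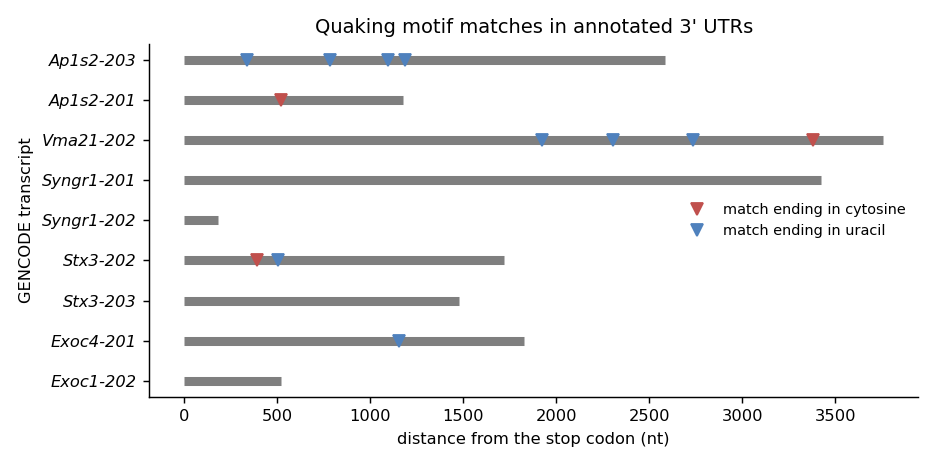
Positions of Quaking hexamer matches (triangles at the first base, coloured by the last base) along the annotated 3′ UTRs of 9 GENCODE transcripts of the 6 genes (grey bars), against the distance from the stop codon in nt (horizontal axis). Ap1s2-203 and Vma21-202 hold 4 matches each, and Syngr1-201 holds 0 over 3425 nt.

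The called bins of other genes whose pair of log2 folds lay nearest to a gene's most significant bin were named by Euclidean distance over the 2 values. For bin 5 of Syngr1 these are bin 7 of Bin1, at 2.13 in Qk5 and -0.18 in Qk6/7 depletion, bin 10 of Ank2, at 2.38 and -0.03, and bin 8 of Rai14, at 2.14 and -0.38, in the authors' deposited table. All lie within 0.25 of it. For bin 5 of Ap1s2 the nearest are bin 1 of Ero1l (-0.29 in Qk5 and -0.52 in Qk6/7 depletion), bin 34 of Whsc1l1 and bin 9 of Tprkb, and for bin 2 of Vma21 they are bin 6 of Neurl1a (-0.31 and 0.18), bin 2 of Eda2r and bin 1 of Matn2, in the authors' deposited table. No called bin comes near bin 16 of Exoc1, the nearest being bin 10 of Bicd2 at a distance of 11.2. Most of that distance is the Qk5 log2 fold of 13.79, whose size cannot be read as a measured ratio. Only called bins were compared.

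Over all 10 lists, 226 genes of vesicle trafficking were looked up. In Qk5 depletion 5 rose (2.21% of the listed genes) and 4 fell (1.77%), beside 2.17% and 0.801% of all genes tested. In Qk6/7 depletion 3 rose (1.33%) and 2 fell (0.885%), beside 0.61% and 1.29% of all genes tested. These counts hold Exoc4 and Stx3, which were chosen by their calls. Without the 6 members, of 220 genes 4 rose (1.82%) and 3 fell (1.36%) in Qk5 depletion, and 2 rose (0.909%) and 1 fell (0.455%) in Qk6/7 depletion. A called bin was present in 8 of the 226 genes (3.54%), and in 4 of the 220 (1.82%) without the members. Of all bins tested 0.163% were called, while the share of all genes with a called bin is not known here. Whether each listed gene was tested is not known here. Counts at an unadjusted p cannot be made for lists with no call, since genes enter the table by their adjusted p. Eps15, an endocytic scaffold, has means of 2289 in Qk5 depletion, 2197 in Qk6/7 depletion and 1195 in control cells (DESeq adjusted p = 0.00265 in Qk5 and 0.00829 in Qk6/7 depletion), by the authors' deposited table, an order of levels like that of Exoc4. Snx27, a sorting nexin of recycling endosomes, has 3011 in Qk5 depletion, 2927 in Qk6/7 depletion and 1805 in control cells (DESeq adjusted p = 0.0234 and 0.0692), by the authors' deposited table.

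The other called genes of the lists were called in 1 depletion. Of 22 clathrin accessory genes, Eps15 rose in both depletions and 1 fell, in Qk5 depletion. That gene, Necap2, fell to 467 in Qk5 depletion, beside 1081 in Qk6/7 depletion and 1100 in control cells (DESeq adjusted p in Qk5 depletion = 6.25e-06), by the authors' deposited table. Of 29 genes of the coats and tethers of the early secretory pathway 1 rose in Qk5 depletion, and of 24 synaptic vesicle proteins 1 rose in Qk6/7 depletion. Of 22 retromer and sorting nexin genes 1 rose in Qk5 depletion and another fell in Qk6/7 depletion. Over all genes tested, 2.17% rose and 0.801% fell in Qk5 depletion, and 0.61% rose and 1.29% fell in Qk6/7 depletion. Nothing about the lists is read from such small counts. Trappc2, a subunit of a tethering complex of the early secretory pathway, rose 1.87-fold in Qk5 depletion (DESeq adjusted p = 0.0126), and Syt7, a calcium sensor of exocytosis at low level here, rose 3.35-fold in Qk6/7 depletion (adjusted p = 0.0416), by the authors' deposited table. Snx10 fell to 0.365-fold in Qk6/7 depletion (DESeq adjusted p = 3.77e-06), by the authors' deposited table. Called bins outside the genes described above also occur in Synrg, a clathrin adaptor partner (bin 8, log2 folds of -1.41 in Qk5 and -0.22 in Qk6/7 depletion, DEXSeq adjusted p = 0.00494), and in Vps29, a retromer subunit (bin 2, 1.51 and -0.30, adjusted p = 0.0284), by the authors' deposited table.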

How the data were processed

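RNA was taken with TRIzol from C2C12 cells after transient transfection, and ribosomal RNA was removed with RiboZero, per the labels' protocols. Bowtie2, TopHat2, SAMtools, bedtools and DESeq were used with the mm9 build, per the submitters' processing notes. The counting, strand setting and annotation were not given in the sources used here. Of 4 groups in the labels, the pan-Qk one was not analysed here, and nothing says that the 3 replicates came from separate cultures, so the spread behind each p-value may be technical only. Replicate 1 was sequenced in 2 runs.

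Per the file headers, the authors deposited for each gene mean signal per condition (counts divided by size factors), the fold as a ratio, its log2, p-values with adjusted p-values from DESeq, and a direction score. For each exon bin they deposited log2 folds of use, a dispersion score, and DEXSeq p-values over 3 conditions. No model was refitted. Genes enter both tables at an adjusted p under 0.1, and the call here was 0.05. The number of tests was recovered from the Benjamini-Hochberg values, and 1 row broken across columns was rejoined. The recovery was tested on simulated data for genes and not for bins, whose rounded p-values give an approximate total.

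Bins were matched to GENCODE M21 exons (GRCm38) by exon and intron length, with no coordinate carried between builds. Where no exon had the length of a bin, as for bin 4 of Syngr1, the match rests on the intron length alone. Sequences come from GENCODE's transcripts. The 3 listed symbols with no RefSeq match were left out. Named genes are the 6 members, their called bins with neighbours, up to 4 called genes per list, and for each member's most significant bin the 3 nearest called bins. A few uncalled genes of the lists are named too. Members and lists were chosen with earlier results of these data known. Python 3.11.15 and pandas 2.3.3 were used.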

Additional observations from a re-analysis of the deposited data

How the results depend on the processing

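No paired analysis was possible because the tables hold no values per replicate, for which reason replicates could not be left out in turn, and no other normalization or count filter could be run. Members called in level numbered 2 in each depletion. At an adjusted p of 0.01 this was 1 in each (Stx3), and counting genes no lower than the table's median level of 275.5 normalized counts it was also 1 in each (Exoc4, since Stx3 averages 268 over the groups). At 0.1 Vma21 joined in Qk5 depletion, giving 3. Called bins of the members numbered 10, and 4 of these had a dispersion at or below the table's median of 0.00203 (bins 2, 3 and 4 of Syngr1 and bin 2 of Vma21). At an adjusted p of 0.01 there were 8, and with a log2 fold of at least 0.5 in 1 depletion 7, none of them in Vma21. Listed trafficking genes that rose in Qk5 depletion numbered 5, against 1 at an adjusted p of 0.01 and 8 at 0.1, and in Qk6/7 depletion 3, against 1 at 0.01, settings chosen after the data were seen. The shorter splicing table also gave 10 bins. Leaving out bins without an adjusted p could not change a gene's median fold, since those bins have no fold either.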

Other observations

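Members of the Rab, Vps and Snx families outside the lists were looked up after the values were seen. Vps24, a subunit of the complex that sorts cargo into multivesicular bodies, had means of 3638 in Qk5 depletion, 3026 in Qk6/7 depletion and 2067 in control cells (DESeq adjusted p = 0.00586 in Qk5 depletion and 0.276 in Qk6/7 depletion), by the authors' deposited table. Snx30 had 702 in Qk5 depletion, 323 in Qk6/7 depletion and 657 in control cells (DESeq adjusted p = 1 in Qk5 depletion and 0.00235 in Qk6/7 depletion), by the authors' deposited table. Rab33b, a Golgi GTPase, had 848 in Qk5 depletion, 378 in Qk6/7 depletion and 667 in control cells (DESeq adjusted p = 0.703 and 0.0302 for the depletions in that order), by the authors' deposited table. Bin 4 of Rab6, a Golgi GTPase, has log2 folds of bin use of -1.05 in Qk5 depletion and -0.81 in Qk6/7 depletion (DEXSeq adjusted p = 0.0133), by the authors' deposited table. Bin 16 of Vps37a, an endosomal sorting gene, is 4859 nt long and has log2 folds of -0.16 in Qk5 depletion and -0.46 in Qk6/7 depletion (DEXSeq adjusted p = 0.0262), by the authors' deposited table.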
